A study of Mus musculus with 60 samples.

Results

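The effect of the MCM2-2A mutation on transcription was measured in POLE4-depleted mouse embryonic stem cells (mESCs) after 24 h of retinoic acid (RA). The comparison holds 6 libraries of the 60 in the series, 3 of dPOLE4 MCM2-2A cells and 3 of dPOLE4 cells. Its members are the features of these libraries, genes and repeat subfamilies together, of which 19068 out of the 56633 counted passed an expression filter. Genes placed outside chromosomes 11, 14 and 15 (15377 tested) are reported apart from those on these chromosomes (2761 tested), from repeat subfamilies (894 tested) and from genes without a position (36 tested).

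All 6 libraries came from E14JU cells whose POLE4 carries the dTAG degron (genotype POLE4-dTAG). Both lines were grown in serum and LIF, received 1 µM dTAG for 24 h, and were then moved to medium with RA and without LIF. The MCM2-2A cells (POLE4-dTAG, MCM2-2A clone 2) also carry a mutant MCM2 that binds histones poorly. Each line is a single clone, so the mutation cannot be told apart from other differences between the clones. The same lines treated with DMSO (Ctrl and Ctrl MCM2-2A), and the same lines before RA (T0), at 12 h (T12) and at 60 h (T60), served for comparison, with 3 libraries each, and the 96 h libraries of the series were not used here. The sources call the 3 libraries biological replicates, and p-values measure the spread between them. Whether dTAG was kept in the medium during RA is not given in the sources used here. The treatment note of the labels names other hours for some RA time points, and the hours of the titles and of the study's methods were followed.

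When DNA is copied, the old histones of a chromosome are handed to both new strands. MCM2, a subunit of the replicative helicase, binds histones H3 and H4 and passes them to the lagging strand, and POLE4, a small subunit of the leading strand polymerase, assists their transfer to the leading strand. RA is a derivative of vitamin A that enters the nucleus with the carrier CRABP2, binds RAR receptors paired with RXR, and switches on genes with RAR binding sites, among them the genes that make, carry and destroy RA itself. In mESCs it ends self-renewal and opens the way to neural and other lineages.

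The libraries held 14605305 to 25217581 counts in dPOLE4 MCM2-2A and 14270472 to 26713299 in dPOLE4, and repeats held 7.18% to 7.95% of them. Levels below are CPM, that is counts divided by the size of the library after TMM scaling, listed for replicates 1, 2 and 3. Changes are log2 fold changes (log2 differences) of dPOLE4 MCM2-2A against dPOLE4 unless another comparison is named, and SE is their standard error. Features were called at a Benjamini-Hochberg adjusted p under 0.01, adjusted over everything tested, together with a log2 difference beyond 0.58 in either direction. The mRNA of Mcm2 (ENSMUSG00000002870, chromosome 6 from 88883474 to 88898780) was counted at 226, 235 and 216 CPM in dPOLE4 MCM2-2A and at 421, 478 and 435 CPM in dPOLE4, a log2 difference of -0.98 (SE 0.07, edgeR adjusted p = 2.52e-06). Pole4 was at 26.5, 26.1 and 24.1 CPM in dPOLE4 MCM2-2A and at 42.4, 46.3 and 44.3 CPM in dPOLE4, a log2 difference of -0.80 (SE 0.08, edgeR adjusted p = 1.77e-05). The libraries did not overlap for either gene. dTAG acts on the POLE4 protein and not on its mRNA, and the MCM2-2A mutation changes codons, so neither level checks the label of a library.

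dPOLE4 MCM2-2A cells differed from dPOLE4 cells in 3064 features (16.1% of those tested), 1664 higher (8.73%) and 1400 lower (7.34%). Among the genes outside chromosomes 11, 14 and 15, 1974 were called (12.8%), 1171 higher (7.62%) and 803 lower (5.22%). The median size of these calls was 1.11 for the higher and -1.0 for the lower genes, and 102 and 105 of them exceeded 2 in size. On chromosomes 11, 14 and 15, 1050 genes were called (38.0%), 485 higher (17.6%) and 565 lower (20.5%). Of the repeat subfamilies, 32 were called (3.58%), 3 higher (0.336%) and 29 lower (3.24%). Groups of 3 libraries did not overlap in CPM in 48.8% of all tested features.

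The 3 chromosomes reported apart were shifted as wholes or in one long piece. On chromosome 11 the median log2 fold change of 1444 genes was -0.51, with 80.9% of the genes below 0, 513 called lower and 56 called higher. On chromosome 15 the median of 708 genes was 0.48, with 87.6% above 0, 236 called higher and 11 lower. Chromosome 14 had a median of 0.21 over 609 genes, and 217 genes between 47.4 and 67.7 Mb had a median of 0.97, with 171 called higher and none lower. The 392 other genes of chromosome 14 had a median of -0.05. The remaining autosomes and chromosome X had medians between -0.14 and 0.13. The same contrast in DMSO-treated cells at T24 gave medians of -0.49, 0.21 and 0.52 for chromosomes 11, 14 and 15, so that these shifts were there with POLE4 too. The part of the chromosome shifts in the results below was not tested, and the chromosome is given for each named gene on these 3.

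**Figure D1:**
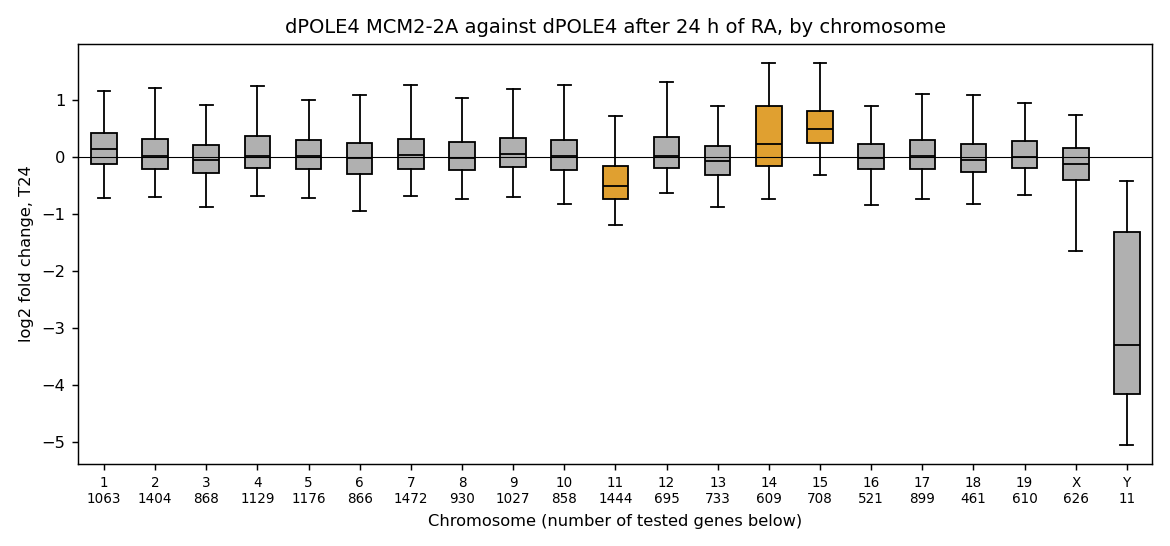
Log2 fold change of dPOLE4 MCM2-2A against dPOLE4 at T24 (y axis) for the tested genes of each chromosome (x axis, with the number of genes). Boxes span the quartiles with the median as a line, and whiskers run from the 5th to the 95th percentile. Chromosomes 11, 14 and 15 are coloured, and the medians of chromosome 11 (-0.51) and chromosome 15 (0.48) lie apart from the other autosomes.

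On chromosome 11, the largest differences were those of Ddc (DOPA decarboxylase), Gpr179 (an orphan receptor of the retina) and Ebf1 (a transcription factor of early B cells). Ddc was counted at 9.96, 11.7 and 11.2 CPM in dPOLE4 MCM2-2A and at 82.7, 97.6 and 90.4 CPM in dPOLE4, a log2 difference of -3.05 (SE 0.10, edgeR adjusted p = 1.84e-08). Gpr179 and Ebf1 had log2 fold changes of -2.02 and -2.0. All 3 were lower in every dPOLE4 MCM2-2A library. On chromosome 14, Ripk3 (a kinase of necroptosis) was at 16.9, 16.9 and 16 CPM against 2.5, 2.58 and 2.28 CPM, a log2 difference of 2.74 (SE 0.12, edgeR adjusted p = 1.78e-07). Gch1 (GTP cyclohydrolase) and Pck2 (the mitochondrial PEP carboxykinase) had log2 fold changes of 2.56 and 2.44, higher in every dPOLE4 MCM2-2A library. Ripk3 and Pck2 lie in the piece from 47.4 to 67.7 Mb and Gch1 lies just before it. On chromosome 15, Krt79 (a keratin), Parvg (a parvin of focal adhesions) and Cpt1b (muscle carnitine palmitoyltransferase) stood at 2.67, 2.34 and 2.21, higher in every dPOLE4 MCM2-2A library.

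Some genes outside these chromosomes also lay in shifted pieces. The 11 tested genes of chromosome Y had a median log2 fold change of -3.29, and 9 of them were called lower. Ddx3y, Zfy1, Uba1y, Uty and Eif2s3y were among the 12 lowest genes named outside chromosomes 11, 14 and 15, with Ddx3y (an RNA helicase) at 2.99, 2.23 and 2.8 CPM in dPOLE4 MCM2-2A and at 97, 85.6 and 95.8 CPM in dPOLE4, a log2 difference of -5.09 (SE 0.11, edgeR adjusted p = 7.03e-10). On chromosome 6, 33 genes between 88.9 and 92.2 Mb, next to Mcm2, had a median of -0.84, with 17 called lower and 3 higher. On chromosome 2, 41 genes between 9.9 and 11.6 Mb had a median of 1.03, with 9 called higher and 2 lower. The same 41 genes had a median of 1.19 at T0 and of -0.02 at T60, while the shifts of chromosomes 6 and Y were there at both times (-0.98 and -0.78, and -3.20 and -3.72). Pieces were taken from these same fold changes, at the centres of windows of 40 tested genes with a median over 0.3 in size. Some hold 1 gene, among them a piece of chromosome 7 at -0.03. Without chromosome Y and all such pieces, an alternative chosen after seeing the data, 1884 genes outside chromosomes 11, 14 and 15 were called, 1127 higher and 757 lower.

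The largest differences were taken from the called protein-coding genes whose libraries did not overlap and whose higher group reached a mean of 5 CPM, 12 in each direction. Besides the 5 genes of chromosome Y, the 12 lowest genes outside chromosomes 11, 14 and 15 were genes of the extracellular matrix and cytoskeleton, a cytochrome P450 and regulators of development. Acta2 (smooth muscle actin, ENSMUSG00000035783, chromosome 19 from 34241090 to 34255590) was counted at 0.759, 1.02 and 1.4 CPM in dPOLE4 MCM2-2A and at 15.7, 13.8 and 13.5 CPM in dPOLE4, a log2 difference of -3.73 (SE 0.19, edgeR adjusted p = 3.8e-07). Thbs1 (thrombospondin 1, chromosome 2 from 118111876 to 118127133), was at 7.82, 10.5 and 10.9 CPM against 108, 88.5 and 99.3 CPM, a log2 difference of -3.34 (SE 0.13, edgeR adjusted p = 6.63e-08). Col1a2 (a chain of type I collagen) was at 1.83, 2.17 and 2.3 CPM against 14.4, 15.3 and 12.7 CPM, a log2 difference of -2.76. In all 3 genes every dPOLE4 MCM2-2A library lay several fold below every dPOLE4 library. Cyp1b1 (a cytochrome P450 of the endoplasmic reticulum) and Rhox2a (a homeobox gene of the X-linked Rhox cluster) had log2 fold changes of -2.9 and -3.64. Rhox2a belongs to a family of near-identical copies, and since reads with several alignments were kept its count is uncertain. The remaining 2, Pax6 and Lef1, are given with their groups below.

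The 12 highest genes outside these chromosomes were of mixed kinds. Thy1 (a GPI-anchored surface glycoprotein, ENSMUSG00000032011, chromosome 9 from 44043384 to 44048579) was counted at 10.4, 8.74 and 8.06 CPM in dPOLE4 MCM2-2A and at 0.807, 0.861 and 0.691 CPM in dPOLE4, a log2 difference of 3.49 (SE 0.19, edgeR adjusted p = 5.15e-07). Trf (transferrin, chromosome 9 from 103204001 to 103230444) was at 23.1, 21.1 and 23.2 CPM against 4.68, 3.8 and 4.91 CPM, a log2 difference of 2.35 (SE 0.12, edgeR adjusted p = 4.69e-07). Alppl2 (an alkaline phosphatase of embryos and placenta) was at 10.3, 7.11 and 13.1 CPM against 2.3, 1.64 and 2.01 CPM, a log2 difference of 2.38. Each was higher in every dPOLE4 MCM2-2A library. Kirrel2 (a nephrin-like adhesion protein), Eln (elastin), Atp2b2 (a calcium pump) and Pigz (an enzyme of GPI anchor synthesis) had log2 fold changes of 2.32, 2.23, 2.17 and 2.15. Sycp3, Usp17la and Usp17lb are described with their families below. Gm12800 and Gm4027, predicted genes without a known role, both stood at 2.09. The 24 genes kept their calls when each library was left out in turn.

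**Figure D2:**
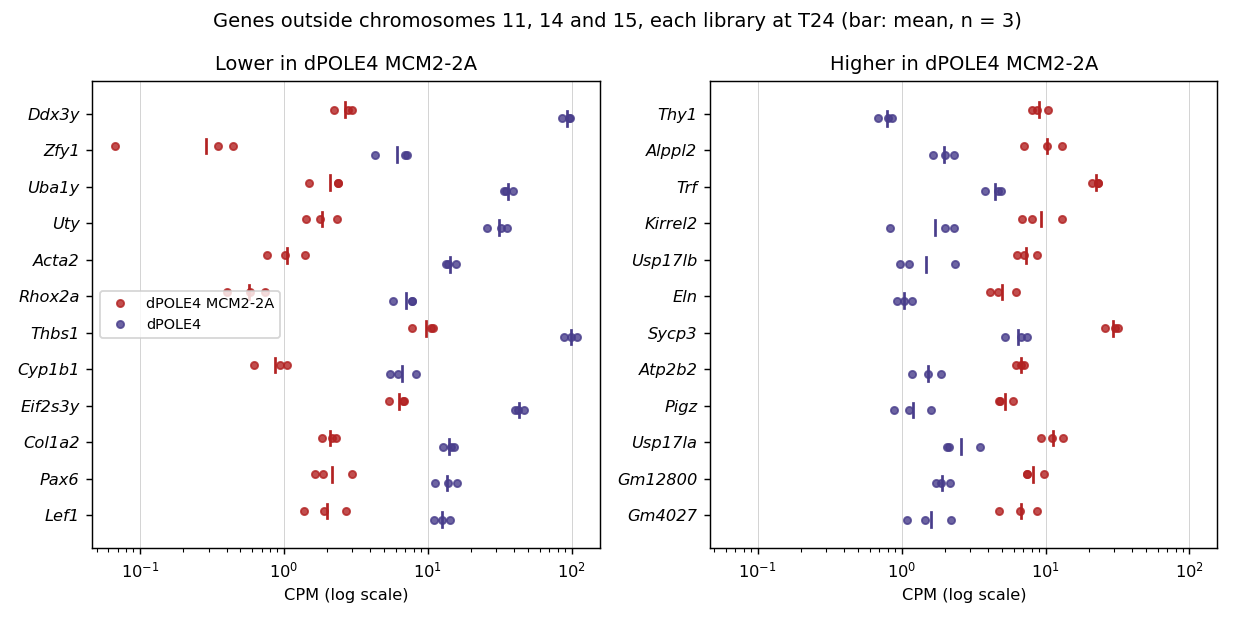
CPM on a log axis (x) of the 12 lowest and the 12 highest called protein-coding genes outside chromosomes 11, 14 and 15 (y). Points are the 3 dPOLE4 MCM2-2A (red) and 3 dPOLE4 (blue) libraries at T24 and bars their means. No gene has overlapping groups, and Ddx3y has the largest difference of the lower genes (log2 fold change -5.09) and Thy1 of the higher ones (3.49).

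Counts in the gene lists from here on stand beside 8.73% higher and 7.34% lower over all tested features, 16.1% in all. In the RA pathway, the carrier Crabp2 and the retinaldehyde reductase Dhrs3 were lower in dPOLE4 MCM2-2A, and the RA-degrading Cyp26b1 was higher. Of 24 tested genes of RA synthesis, transport, breakdown and reception, 4 were called higher and 3 lower, with a median of 0.03 against -0.0015 over all tested features. All 7 calls held with each library left out. Crabp2, which carries RA to the nuclear receptors (ENSMUSG00000004885, chromosome 3 from 87948666 to 87953376), was counted at 28.9, 38.1 and 29 CPM in dPOLE4 MCM2-2A and at 69.2, 87.3 and 69.9 CPM in dPOLE4, a log2 difference of -1.25 (SE 0.12, edgeR adjusted p = 1.72e-05). Dhrs3, a reductase that returns retinaldehyde to retinol (chromosome 4 from 144892827 to 144928209), was at 33.2, 38.3 and 36.7 CPM against 63.7, 62.5 and 62.3 CPM, a log2 difference of -0.80 (SE 0.08, edgeR adjusted p = 1.31e-05). The libraries of the 2 lines were well apart for both genes. Cyp26b1, a cytochrome P450 that oxidises RA (chromosome 6 from 84571414 to 84593908), was at 56.1, 60.5 and 75.3 CPM against 24.2, 29.6 and 29 CPM, a log2 difference of 1.22 (SE 0.12, edgeR adjusted p = 1.59e-05). Crabp1 (a cytoplasmic RA carrier) was higher by 0.76.

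Among the receptors, Rarg (chromosome 15) was higher, at 195, 198 and 182 CPM against 116, 132 and 100.4 CPM, a log2 difference of 0.72 (SE 0.09, edgeR adjusted p = 0.000116). The corepressor Ncor1 (chromosome 11) was lower, with a log2 fold change of -0.80. Rara (chromosome 11) and Rxra stood at -0.51 and 0.30 and were not called. Stra6 and Stra8, whose names mean stimulated by RA, were not called either, at 0.43 and -0.30. Aldh1a2, the main RA-producing enzyme of the embryo, stood at 0.73 (edgeR adjusted p = 0.0167) and was called only with the replicate number as a block (edgeR adjusted p = 0.0099).

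Rarb and Cyp26a1 are classical direct targets of RAR and were among the genes of the RA pathway that did not pass the fold threshold. Their promoters, the 250 bases before the annotated start from RefSeq (GRCm38.p6), are shown 5′ to 3′ on the strand of the gene. Capitals mark a pair of hexamers in the same direction with 5 bases between them, the kind of element that RAR and RXR bind. The hexamer searched for on both strands was AGGTCA or one of its variants, of which the first reads AGTTCA, the second is GGGTCA and the last is GGTTCA. These letters occurred in 29 of 32851 promoters of this length (0.0883%), and among the 19 genes of the RA pathway list with a promoter in the table in these 2 only. A match is a description of the sequence and not a site shown to be bound.
Rarb, chr14:16575477-16575726, minus strand: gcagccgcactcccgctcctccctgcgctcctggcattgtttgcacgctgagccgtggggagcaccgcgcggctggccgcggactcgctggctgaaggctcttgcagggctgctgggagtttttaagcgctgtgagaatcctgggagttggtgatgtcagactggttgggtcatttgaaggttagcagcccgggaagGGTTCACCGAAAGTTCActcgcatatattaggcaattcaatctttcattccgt
Cyp26a1, chr19:37697558-37697807, plus strand: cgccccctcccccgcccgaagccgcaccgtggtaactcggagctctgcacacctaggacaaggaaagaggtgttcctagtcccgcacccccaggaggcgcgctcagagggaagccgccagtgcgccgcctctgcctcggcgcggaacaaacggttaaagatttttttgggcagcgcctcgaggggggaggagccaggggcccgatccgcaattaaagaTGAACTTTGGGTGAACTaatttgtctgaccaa
The matched letters end 36 bases before the start of Rarb and 15 bases before that of Cyp26a1, where they read on the opposite strand. Rarb (chromosome 14, outside the shifted piece) was counted at 12.6, 13.8 and 14.6 CPM in dPOLE4 MCM2-2A and at 18.1, 18.8 and 23.6 CPM in dPOLE4. Its log2 fold change of -0.55 (SE 0.12, edgeR adjusted p = 0.00376) passed the p threshold and not the fold threshold. Cyp26a1, the RA-induced RA oxidase, was at 148, 142 and 154 CPM against 162, 197 and 172 CPM, a log2 difference of -0.26 (SE 0.08, edgeR adjusted p = 0.0262). Every dPOLE4 MCM2-2A library lay below every dPOLE4 library in both genes, by a smaller margin than for Crabp2 or Dhrs3.

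The TALE homeobox genes, cofactors of Hox proteins that RA induces, were lower where they were called. Of 9 tested, 4 were called lower and none higher, with a median of -0.31. Meis2 (chromosome 2 from 115863064 to 116065839) was counted at 26.7, 25.3 and 25.8 CPM in dPOLE4 MCM2-2A and at 61.7, 64.6 and 65.3 CPM in dPOLE4, a log2 difference of -1.3 (SE 0.07, edgeR adjusted p = 5.6e-07). Pknox2 and Meis1 (the latter on chromosome 11) had log2 fold changes of -1.54 and -1.85. These 3 genes were lower in every dPOLE4 MCM2-2A library, and their calls held with each library left out. Meis3 stood at 0.58 and was called only with the replicate block (edgeR adjusted p = 9.0e-04).

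Of 31 tested genes of the Hox clusters, which set position along the body axis, 3 were called higher and 5 lower, with a median of -0.03. The 5 lower genes, Hoxb1, Hoxb2, Hoxb4, Hoxb5 and Hoxb6, all lie on chromosome 11. Hoxb4 was at 24.6, 22.8 and 22.5 CPM against 44.9, 60.05 and 48 CPM, a log2 difference of -1.13 (SE 0.11, edgeR adjusted p = 1.53e-05). Hoxb1 was at 42.1, 48.5 and 49.5 CPM against 79.3, 98.2 and 65.3 CPM, a log2 difference of -0.80. The 3 higher genes were Hoxa9 (1.57) and Hoxc10 and Hoxc13 of chromosome 15 (1.71 and 1.52), all below 7 CPM. Hoxb6 lost its call without dPOLE4 replicate 2 (-0.56), and Hoxc10 without dPOLE4 replicate 1 or 2 (edgeR adjusted p = 0.0104 and 0.0115). Of 9 other transcription factors that RA induces, 1 was called higher and 2 lower. Cdx1 (a caudal homeobox gene, and one of the earliest RA targets) was at 171, 171 and 168 CPM against 74.1, 71 and 58.1 CPM, a log2 difference of 1.32 (SE 0.09, edgeR adjusted p = 1.5e-06). Of the lower ones, Tshz1 stood at -0.65.

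Naive pluripotency genes showed no common direction after 24 h of RA. Of 13 tested, 1 was called higher and 3 lower, with a median of 0.04, and 2 of the 4 calls held with each library left out. Dppa3 (Stella, a maternal factor that guards DNA methylation) was counted at 1.92, 3.11 and 2.33 CPM in dPOLE4 MCM2-2A and at 7.22, 11.1 and 7.54 CPM in dPOLE4, a log2 difference of -1.85 (SE 0.22, edgeR adjusted p = 6.26e-05). Pecam1 (chromosome 11) was at 80.1, 86.8 and 86.1 CPM against 158, 186 and 171 CPM, a log2 difference of -1.03. Both were lower in every dPOLE4 MCM2-2A library. Pou5f1 (Oct4) stood at 0.16 with overlapping groups, and Nanog, Tfcp2l1 and Nr5a2 stood at 0.45, 0.40 and 0.44, short of the fold threshold. Of 20 other pluripotency genes, 2 were higher, Tdgf1 (Cripto, 1.5) and Tdh (threonine dehydrogenase, chromosome 14, 1.39). Another 4 of them were lower, Spp1, Morc1, Lin28a and L1td1, between -0.76 and -0.63. The call of L1td1 was lost without dPOLE4 MCM2-2A replicate 3 (-0.58) or dPOLE4 replicate 2 (-0.49).

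Formative pluripotency genes, which mark cells on the way from the naive state to lineage choice, were lower where they were called. Of 8 tested, 4 were called lower and none higher, with a median of -0.79, and all 4 calls held with each library left out. The list follows the study of these cells, and how it was chosen is not given in the sources used here, so its direction is not independent evidence. Lef1, a nuclear partner of beta-catenin (ENSMUSG00000027985, chromosome 3 from 131110471 to 131224356), was counted at 1.38, 2.71 and 1.91 CPM in dPOLE4 MCM2-2A and at 14.3, 12.5 and 11 CPM in dPOLE4, a log2 difference of -2.71 (SE 0.20, edgeR adjusted p = 2.52e-06). Pou3f1, the POU factor Oct6 (chromosome 4 from 124656807 to 124660655), was at 9.07, 11.2 and 8.72 CPM against 30.1, 37.9 and 31.3 CPM, a log2 difference of -1.79 (SE 0.12, edgeR adjusted p = 1.81e-06). Zic2, a zinc finger factor on chromosome 14 (outside the shifted piece), was at 17.6, 17.1 and 18.5 CPM against 48.5, 61.5 and 53.3 CPM, a log2 difference of -1.61 (SE 0.10, edgeR adjusted p = 9.64e-07). In none of the 3 genes did a dPOLE4 MCM2-2A library come near the level of a dPOLE4 library. Sox4 stood at -0.89, and Otx2 (chromosome 14), Krt18 (chromosome 15), Foxd2 and Fgf5 were not called, at -0.17, -0.26, -0.52 and -0.68. Of 10 further formative genes, Zic5 (chromosome 14) was lower at -1.17 and Dnmt3a, a de novo DNA methyltransferase, was higher at 0.74.

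The called genes of the Nodal pathway were higher with 1 exception. Of 16 tested, 5 were called higher and 1 lower, with a median of 0.03. Tdgf1, the co-receptor of Nodal, was at 161, 149 and 167 CPM against 65.9, 60.3 and 41.1 CPM, a log2 difference of 1.5 (SE 0.14, edgeR adjusted p = 9.77e-06). Lefty2, a secreted inhibitor of Nodal, was at 164, 156 and 149 CPM against 79.2, 75.9 and 59.1 CPM, a log2 difference of 1.13 (SE 0.10, edgeR adjusted p = 8.58e-06). Nodal itself was at 108, 95.3 and 97.4 CPM against 57.5, 52.7 and 53.1 CPM, a log2 difference of 0.88 (SE 0.08, edgeR adjusted p = 6.86e-06). Each of the 3 was higher in every dPOLE4 MCM2-2A library. Foxh1, the nuclear partner of SMAD2, and the receptor Acvr1b, both on chromosome 15, stood at 0.69 and 0.65. The ligand Gdf3 was lower at -0.86. The call of Acvr1b was lost without dPOLE4 replicate 3 (log2 fold change 0.54).

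BMP pathway genes were lower where they were called, 5 of 13 tested, with a median of -0.25. Id2, a helix-loop-helix inhibitor that BMP induces, was at 29.5, 29.1 and 32.6 CPM against 63.4, 65.8 and 83.1 CPM, a log2 difference of -1.21 (SE 0.11, edgeR adjusted p = 7.55e-06). The homeobox target Msx1 was at 7.55, 10.6 and 8.6 CPM against 26.2, 28.9 and 21.8 CPM, a log2 difference of -1.55. The ligand Bmp2 and the antagonist Nog (chromosome 11) stood at -1.9 and -2.32, both below 5 CPM. Of these calls, 4 of 5 held with each library left out. In the Wnt pathway, 6 of 18 were called lower and 1 higher, with a median of -0.32 and all 7 calls kept with each library left out. Besides Lef1, the Wnt target Sp5 was at 1.03, 1.15 and 1.09 CPM against 3.27, 4.93 and 2.7 CPM, a log2 difference of -1.77 (SE 0.26, edgeR adjusted p = 0.000282). The secreted inhibitor Dkk1 stood at -0.99, and Wnt3, the receptor Fzd2 and the ligase Znrf3, all on chromosome 11, at -1.05, -1.5 and -0.85. The receptor Fzd10 was higher at 0.80.

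In the FGF and ERK pathway, 4 of 18 genes were called lower and none higher, with a median of -0.49. The receptors Fgfr2 and Fgfr3 stood at -0.78 and -0.83, and the phosphatase Dusp4, a feedback inhibitor of ERK, at -0.84. Fgfr2 was counted at 35.5, 40.3 and 40.2 CPM in dPOLE4 MCM2-2A and at 58.6, 65.4 and 75.4 CPM in dPOLE4, lower in all 3 libraries. Of the 4 calls, 3 held with each library left out, those of Fgfr2, Fgfr3 and Dusp4.

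Of 5 genes that the study follows as an early response to RA, Sox1 was lower, Lefty2 was higher and 3 were not called, Sox3 and Lefty1 among them (-0.50 and -0.45). Neural genes were mostly lower where they were called. Of 17 tested, 6 were called lower and 1 higher, with a median of -0.48, and all of them lie outside chromosomes 11, 14 and 15. Pax6, a paired-box regulator of neural progenitors and the eye (ENSMUSG00000027168, chromosome 2 from 105668900 to 105697364), was counted at 1.88, 2.98 and 1.63 CPM in dPOLE4 MCM2-2A and at 11.2, 15.9 and 13.9 CPM in dPOLE4, a log2 difference of -2.72 (SE 0.21, edgeR adjusted p = 3.45e-06). Sox11, an SRY-related factor of neural differentiation (chromosome 12 from 27334264 to 27342574), was at 8.62, 9.41 and 9.22 CPM against 37.3, 37 and 29.5 CPM, a log2 difference of -1.94 (SE 0.11, edgeR adjusted p = 6.45e-07). Nes (nestin, an intermediate filament of neural progenitors) was at 30.8, 38.7 and 30.7 CPM against 77.3, 94.8 and 75.2 CPM, a log2 difference of -1.31 (SE 0.11, edgeR adjusted p = 7.28e-06). In each of the 3 genes the dPOLE4 MCM2-2A libraries lay far below the lowest dPOLE4 library. Cdh2 (N-cadherin), Sox1 and Irx3 stood at -1.92, -1.24 and -0.98. Neurod1, the only one higher (0.94), lost its call with any of the 6 libraries left out (edgeR adjusted p = 0.0102 to 0.0467). Zfp521 and Zic1 stood at -1.12 and 1.98 and were called only with the replicate block (edgeR adjusted p = 0.0016 and 0.0011). In bulk RNA, fewer cells of a type and less RNA in each such cell cannot be told apart.

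Markers of other lineages moved in both directions. Of 17 endoderm genes 4 were called higher and 2 lower, with Apoe (apolipoprotein E) at 205, 253 and 155 CPM against 64.6, 80.1 and 46.9 CPM, a log2 difference of 1.67 (SE 0.19, edgeR adjusted p = 4.77e-05). Gata4 and Sox7 of chromosome 14 were higher at 1.62 and 0.81, and Cubn (cubilin) was lower at -1.27. Of 9 mesoderm genes 2 were higher and 3 lower, among them brachyury, the primitive streak factor, which was at 0.759, 0.813 and 0.778 CPM against 3.39, 2.54 and 2.42 CPM, a log2 difference of -1.84 (SE 0.24, edgeR adjusted p = 0.000111). Of 11 trophoblast genes 2 were higher and 4 lower. Gata3 was at 4.73, 8.46 and 5.64 CPM against 25.2, 29.6 and 31.5 CPM, a log2 difference of -2.23 (SE 0.17, edgeR adjusted p = 3.49e-06), and Tfap2a stood at -1.63. Krt7 of chromosome 15 was higher at 2.1. With each library left out, all 6 calls of the endoderm list, 3 of 5 of the mesoderm list and 5 of 6 of the trophoblast list held.

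The cells are labelled as ES cells, and their markers were checked. All 8 ES cell identity genes were expressed, their summed level was 2157 to 2307 CPM in dPOLE4 MCM2-2A and 2204 to 2383 CPM in dPOLE4, and 1 of them, Lin28a, was called (-0.64). Of 10 fibroblast genes, 6 passed the filter, 3 were called lower and Thy1 higher. Col1a1 (chromosome 11) was at 13.9, 13.4 and 14 CPM against 49.6, 50.8 and 41.3 CPM and Col3a1 at 0.0893, 0.339 and 0.195 CPM against 3.15, 2.39 and 1.66 CPM, log2 fold changes of -1.78 and -3.64. The summed level of the fibroblast list was 63.3 to 67 CPM in dPOLE4 MCM2-2A and 88.7 to 102 CPM in dPOLE4, and Lum, Dcn, Postn and S100a4 did not pass the filter. Since Col1a2, Acta2 and Thbs1 are genes of such cells too, the part of other cells in their difference was not tested. Of 4 tested blood genes, Cd74 was higher at 1.53, Hbb-bs had no count in any of the 6 libraries, and the summed level of the 7 genes of the list was 22.2 to 25.3 CPM in dPOLE4 MCM2-2A and 12.3 to 14.2 CPM in dPOLE4.

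Genes of the 2-cell-like state, a rare state of mESC cultures that resembles the early embryo, were higher where they were called. Of 8 features, 5 were called higher and none lower, with a median of 1.29. Zscan4a was counted at 16.3, 13.9 and 21.2 CPM in dPOLE4 MCM2-2A and at 9.04, 2.9 and 4.7 CPM in dPOLE4, a log2 difference of 1.62 (SE 0.31, edgeR adjusted p = 0.00152), and kept its call with each library left out. The other 4, Zscan4b, Zscan4c, Zscan4e and Zscan4f, stood between 1.25 and 1.45 and lost theirs in 3 or 4 of these 6 fits, for example Zscan4c without dPOLE4 MCM2-2A replicate 3 (log2 fold change 1.08, edgeR adjusted p = 0.0442). dPOLE4 replicate 1 was the highest of its group in all of them. The retroviral features MERVL-int (0.42) and MT2_Mm (0.67) were not called, MT2_Mm being called with the replicate block (edgeR adjusted p = 1.15e-05), as was Zscan4d (edgeR adjusted p = 1.6e-05). Of 8 other such genes, 5 were higher, with a median of 1.42. Usp17la, a deubiquitinase gene, was at 11.1, 9.28 and 13.2 CPM against 3.51, 2.07 and 2.14 CPM, a log2 difference of 2.11 (SE 0.21, edgeR adjusted p = 1.76e-05), and Duxf3 (Dux), which activates this programme, stood at 1.33 with at most 3.0 CPM, a call lost without dPOLE4 MCM2-2A replicate 3 (edgeR adjusted p = 0.0121). Zscan4 and Usp17l genes are families of near-identical copies, so the count of a single member is uncertain.

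Germline genes, which DNA methylation and Polycomb keep silent in somatic cells, were mostly higher where they were called. Of 15 tested, 7 were called higher and 2 lower, with a median of 0.51, and 7 of the 9 calls held with each library left out. Sycp3, a protein of the synaptonemal complex (ENSMUSG00000020059, chromosome 10 from 88459569 to 88473236), was counted at 31.7, 25.7 and 30.2 CPM in dPOLE4 MCM2-2A and at 5.25, 7.48 and 6.71 CPM in dPOLE4, a log2 difference of 2.18 (SE 0.14, edgeR adjusted p = 1.07e-06). Taf7l (a germ cell TFIID subunit, chromosome X) was at 17.6, 13.2 and 16.7 CPM against 4.96, 4.42 and 4.91 CPM, a log2 difference of 1.74 (SE 0.14, edgeR adjusted p = 3.93e-06). Tdrd1 and Mael, both of the piRNA pathway, were higher at 1.62 and 1.23. Ddx4 (Vasa) was at 31.7, 29.9 and 32.1 CPM against 19.4, 18.9 and 16.7 CPM, a log2 difference of 0.76. Each of these genes was higher in every dPOLE4 MCM2-2A library. Sycp1 stood at 1.62, and Tuba3a, a testis tubulin, was lower at -0.99.

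Target genes of p53 were higher where they were called, 7 of 22, with a median of 0.34 and 5 of the 7 calls kept with each library left out. Btg2 (an antiproliferative factor) was counted at 81.6, 77.7 and 73.5 CPM in dPOLE4 MCM2-2A and at 41.6, 37.3 and 35.7 CPM in dPOLE4, a log2 difference of 1.02 (SE 0.08, edgeR adjusted p = 4.03e-06). Gdf15 (a stress cytokine) was at 9.02, 7.18 and 7.51 CPM against 2.1, 3.56 and 2.56 CPM, a log2 difference of 1.52 (SE 0.20, edgeR adjusted p = 0.000112). Pmaip1 (Noxa) stood at 1.08 and Trp53inp1 at 0.73. Cdkn1a (p21), the best known of them, stood at 0.42 (edgeR adjusted p = 0.00137) and Mdm2 at 0.26, and neither was called.

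Imprinted genes, expressed from 1 parental allele and often clustered, were mostly lower where they were called. Of 29 tested, 11 were called lower and 1 higher, with a median of -0.54, and 11 of the 12 calls held with each library left out. Plagl1, a zinc finger factor (chromosome 10 from 13060504 to 13131694), was counted at 22.3, 20.8 and 25 CPM in dPOLE4 MCM2-2A and at 117, 79 and 90.4 CPM in dPOLE4, a log2 difference of -2.07 (SE 0.14, edgeR adjusted p = 1.39e-06). Mest was at 186, 190.1 and 213 CPM against 624, 563 and 618 CPM, a log2 difference of -1.62 (SE 0.08, edgeR adjusted p = 2.67e-07). Peg10, a gene of retrotransposon origin, was at 779, 781 and 927 CPM against 2017, 1637 and 1916 CPM, a log2 difference of -1.16 (SE 0.10, edgeR adjusted p = 6.07e-06). These 3 were lower in every dPOLE4 MCM2-2A library. Peg3, Ndn, Nnat, Cdkn1c and Sgce stood between -0.99 and -0.75, and Grb10 (chromosome 11) and Peg13 (chromosome 15) at -1.79 and -1.67. Igf2, the paternally expressed growth factor, was the one higher, at 58.4, 79.4 and 63.5 CPM against 33.1, 29 and 22.5 CPM, a log2 difference of 1.24 (SE 0.14, edgeR adjusted p = 4.63e-05). The summed level of the list was 3064 to 3384 CPM in dPOLE4 MCM2-2A and 4867 to 5559.5 CPM in dPOLE4.

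Few genes of chromatin and replication were called at T24, most of them on chromosomes 11, 14 and 15. Of 69 replication-dependent histone genes 2 were called lower, Hist1h1t (-1.33) and Hist2h3c2 (-0.79), with a median of -0.22. In the separate fits of the other times, 31 of 69 were called lower at T0, 17 of 68 at T12 and 51 of 68 at T60. Over all features 8.27% were lower at T0 and 9.25% at T60, and 18.4% were called in either direction at T12. None of these histone genes was called higher at these times. The interaction of line and time between T0 and T24, described below, called none of the 69. A difference between the times was thus not shown for any single histone gene, and T12 and T60 were not tested in this way. In the DMSO-treated lines at T24, 3 were higher and none lower. Of 9 replacement histone genes H3f3b (chromosome 11, -1.01) and H1fx (-0.61) were lower at T24 under depletion. The call of H1fx was lost without dPOLE4 MCM2-2A replicate 3 (-0.58) or dPOLE4 replicate 2 (-0.47). Among 19 histone chaperone genes only Supt16, a FACT subunit on chromosome 14, was called (1.03). Mcm2 and Pole4 were the 2 called of 10 polymerase epsilon and MCM genes, and of 37 other replication genes Wdhd1 (chromosome 14) was higher at 1.34 and Pold2 (chromosome 11) lower at -0.62, a call lost without dPOLE4 MCM2-2A replicate 3 or dPOLE4 replicate 2 (-0.56 and -0.58). Of 32 Polycomb genes Suz12 and Pcgf2 of chromosome 11 and Kdm2b were lower (-0.84, -0.61 and -0.59, of which only Suz12 kept its call with each library left out) and Cbx7 of chromosome 15 was higher by 0.58, a call lost with the replicate block (0.579). Of 17 genes of H3K9 methylation Cbx1 (chromosome 11) stood at -0.80 and Mphosph8 (chromosome 14) at 1.21. Dnmt3a was the only one called of 10 genes of DNA methylation.

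The last lists were of metabolism and cell adhesion. Of 18 genes of hypoxia and glycolysis 3 were higher and 3 lower, the latter being the glucose transporter Slc2a1 (-0.72), hexokinase Hk2 (-0.83) and Pfkfb3 (-0.89). Slc2a1 was counted at 466, 479 and 484 CPM in dPOLE4 MCM2-2A and at 747, 899 and 704 CPM in dPOLE4, lower in every library. Of these calls, 4 of 6 held with each library left out. Of 15 keratin and adhesion genes 5 were higher and 3 lower. Vim (vimentin) was at 49.98, 54.3 and 53.3 CPM against 139.8, 124 and 127 CPM, a log2 difference of -1.31 (SE 0.07, edgeR adjusted p = 6.04e-07), and Cldn4 (a tight junction claudin) at 109, 123 and 96.3 CPM against 43.3, 46.4 and 42 CPM, a log2 difference of 1.32 (SE 0.09, edgeR adjusted p = 1.99e-06). The groups were apart in both genes, and 7 of the 8 calls of the list held with each library left out. In the Myc family Mycn was lower at -1.17, the one call among 6. None of 13 mitochondrial mRNAs was called.

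**Figure D3:**
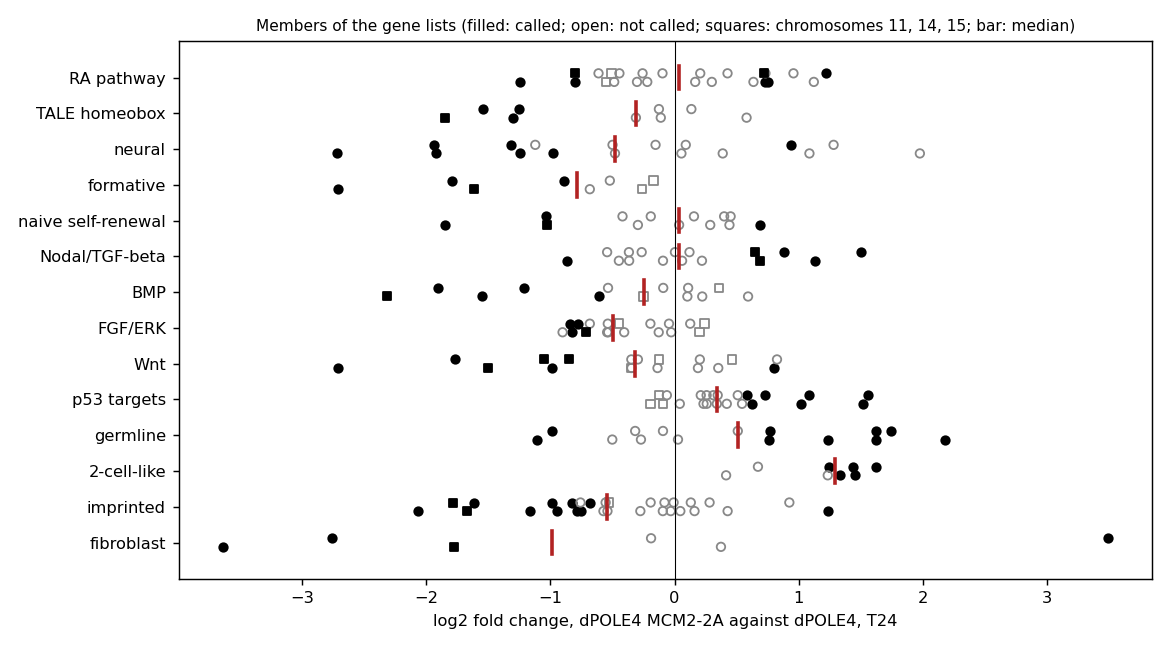
Log2 fold change at T24 (x axis) of each tested member of 14 gene lists (y axis). Filled symbols were called and open symbols were not, squares mark genes on chromosomes 11, 14 and 15, and red bars are list medians. The formative, imprinted and neural lists have medians below 0 (-0.79, -0.54 and -0.48) and the germline and 2-cell-like lists above 0 (0.51 and 1.29).

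The called repeat subfamilies were almost all LTR retroviruses, and lower. Of 532 tested LTR subfamilies 28 were lower and 2 higher, of 139 LINE subfamilies 1 was higher, and of 35 SINE subfamilies none was called. Of the 30 calls of LTR subfamilies, 17 held with each library left out. The lowest were MLT1J1-int, IAPEy-int and MURVY-int. IAPEy-int, an IAP element, was counted at 2.81, 2.64 and 2.53 CPM in dPOLE4 MCM2-2A and at 15.6, 14 and 13.9 CPM in dPOLE4, a log2 difference of -2.44 (SE 0.13, edgeR adjusted p = 4.8e-07), and MLT1J1-int and MURVY-int stood at -3.08 and -1.94. The most abundant of the lower ones, chosen after its values were seen, was RLTR1B-int, at 431, 458 and 477 CPM against 836, 748 and 771 CPM, a log2 difference of -0.79 (SE 0.07, edgeR adjusted p = 1.13e-05). The libraries of the 2 lines did not overlap in either. RLTR1B-int did not keep this direction at all times. It stood at -0.90 in the DMSO-treated lines at T24, and under depletion at -1.44 at T0 and 1.15 at T60. Of the LTR subfamilies 4 of 529 were called higher and 16 lower at T0, beside 10.3% and 8.27% over all features. At T60 it was 31 of 497 higher and 13 lower, beside 11.2% and 9.25%. LTR subfamilies were thus called less often than all features in both directions at both times. At T24 the highest repeats were L1ME3F (0.90), MERV1_LTR (0.77) and MER54A (0.77). MERV1_LTR lost its call without dPOLE4 MCM2-2A replicate 1 (edgeR adjusted p = 0.0196), and L1ME3F and MER54A lost theirs in 5 of 6 such fits (edgeR adjusted p up to 0.0402 and 0.0293). Subfamily counts sum reads over many copies, some of them inside genes or on shifted chromosomes, and whether this moved a subfamily was not tested. The part of the shift of chromosome Y (median -3.29) in IAPEy-int and MURVY-int was not tested either.

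To learn whether the effect of MCM2-2A at T24 depends on POLE4, the same contrast was taken in DMSO-treated cells, from 6 other libraries. It called 3238 features (17.3%). Of the 3064 features called under POLE4 depletion, 2233 (72.9%) were called there too, which is 69.0% of those called with POLE4, and all 2233 had the same direction. Outside chromosomes 11, 14 and 15 it was 1377 of 1974 (69.8%). Thbs1, Thy1, Sycp3 and Pax6 had log2 fold changes of -3.34, 3.53, 2.23 and -1.89 with POLE4 against -3.34, 3.49, 2.18 and -2.72 without it. For Lef1 and Pou3f1 they were -1.96 and -1.02 with POLE4 against -2.71 and -1.79, and for Mest and Tdgf1 -1.75 and 1.5 against -1.62 and 1.5. None of these differences was called in the test that follows.

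The difference between the 2 contrasts, tested as an interaction over 12 libraries, was called in 7 of 19961 features (0.0351%), all with a lower value under POLE4 depletion, while 1759 (8.81%) had an unadjusted p below 0.05. Other fits also made calls in the other direction, 5 of 29 with DESeq2 and 5 of 28 with the replicate block. Meis2 was counted at 73.1, 74.8 and 79.1 CPM in Ctrl, 46.1, 51.4 and 50.4 CPM in Ctrl MCM2-2A, 61.2, 64.2 and 64.7 CPM in dPOLE4 and 26.6, 25.2 and 25.7 CPM in dPOLE4 MCM2-2A. The line difference was -0.61 with POLE4 and -1.3 without, and their difference was -0.67 (SE 0.09, edgeR adjusted p = 0.00724). Zic2 (chromosome 14) showed the same order of groups, with 34.5, 40.1 and 41.6 CPM in Ctrl MCM2-2A and 17.6, 17.1 and 18.4 CPM in dPOLE4 MCM2-2A against 48.0 to 61.1 CPM in the libraries without the mutation, and a difference of -1.06 (SE 0.13, edgeR adjusted p = 0.00724). Cxcl12, a chemokine, stood at 5.27, 5.79 and 4.59 CPM in Ctrl MCM2-2A and at 1.96, 1.42 and 2.13 CPM in dPOLE4 MCM2-2A, with a difference of -1.44 (SE 0.20, edgeR adjusted p = 0.00724). Car2, a carbonic anhydrase, had a difference of -0.62 (SE 0.09, edgeR adjusted p = 0.00735). In these 4 genes both mutant groups lay below both groups without the mutation, and dPOLE4 MCM2-2A lay lowest.

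In the other 3 features the mean was highest in Ctrl MCM2-2A. H1f0, a linker histone gene on chromosome 15, was counted at 165, 158 and 173 CPM in Ctrl MCM2-2A and at 87.9, 72.7 and 84.1 CPM in dPOLE4 MCM2-2A, against 84.4 to 109 CPM in the 6 libraries without the mutation. Its line difference was 0.80 with POLE4 and -0.20 without, and their difference was -1.0 (SE 0.14, edgeR adjusted p = 0.00724). The linker histone gene H1fx and the retroviral MMERGLN-int had line differences of 0.35 and 0.67 with POLE4 and -0.61 and -0.06 without, differing by -0.96 (SE 0.13, edgeR adjusted p = 0.00724) and -0.72. Without Ctrl replicate 1 or 3, Ctrl MCM2-2A replicate 2 or 3, or any dPOLE4 MCM2-2A replicate, no feature was called, and without Ctrl replicate 2, dPOLE4 replicate 3 and Ctrl MCM2-2A replicate 1 it was 3, 3 and 2.

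**Figure D4:**
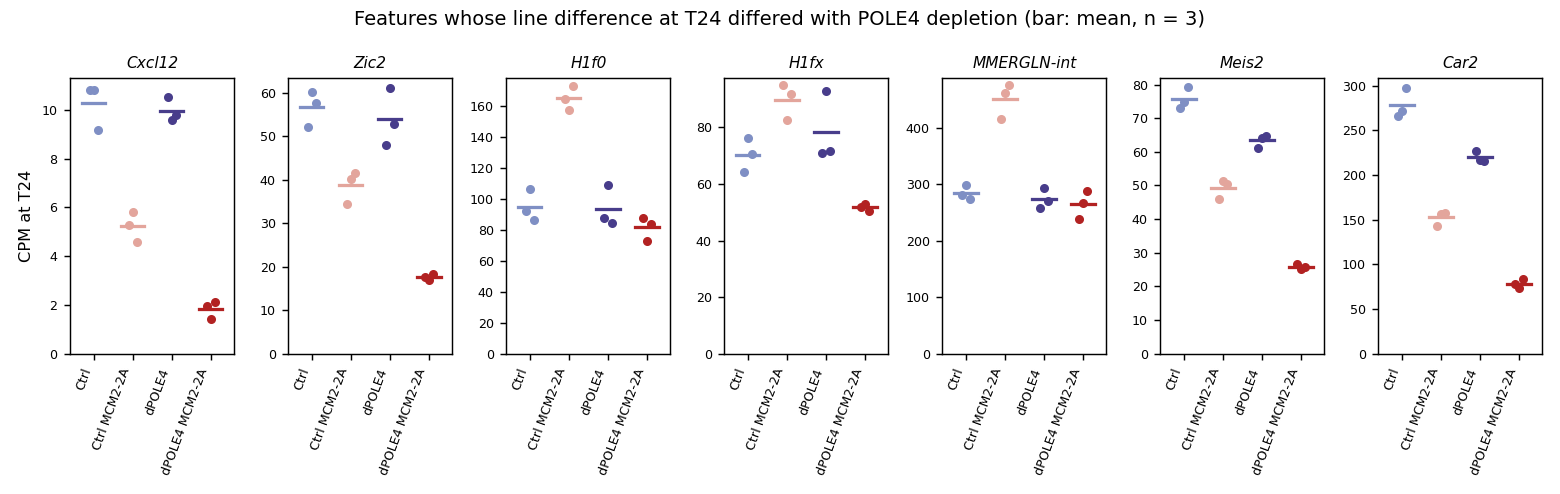
CPM at T24 (y axis, linear from 0) of the 7 features called for a line difference that differed between dPOLE4 and Ctrl, in the 4 groups (x axis). Points are libraries and bars means (n = 3). Meis2, Zic2, Cxcl12 and Car2 are lowest in dPOLE4 MCM2-2A, and H1f0, H1fx and MMERGLN-int have their highest mean in Ctrl MCM2-2A.

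The difference between the lines was also taken before RA and at the other times. The same contrast, with other libraries of the same clones, called 3428 features at T0 (18.6%), 3406 at T12 (18.4%) and 3722 at T60 (20.4%). Of the features called at T24, 2000 (65.3%) were called at T0, 1987 of them in the same direction, which is 58.3% of the T0 calls. At T12 it was 2170 (70.8%, and 63.7% of the T12 calls), all in the same direction, and at T60 1726 (56.3%, and 46.4% of the T60 calls), 1660 in the same direction. In all 5 contrasts, the DMSO one included, 1034 features were called, 1008 of them always in the same direction. Outside chromosomes 11, 14 and 15 there were 534 of these, 359 higher and 175 lower at T24. Sycp3 was one of them, with 2.14 at T0, 1.59 at T12 and 2.58 at T60, and so were Pax6 (-1.33, -2.41 and -2.51), Plagl1 (-2.2, -2.19 and -1.46) and Tdgf1 (0.97, 1.31 and 2.27). Lef1 stood at -1.47 and -1.77 at T0 and T12 and at 0.22 at T60, where it was not called. Called at T24 under depletion and in none of the others were 215 features, 163 of them outside chromosomes 11, 14 and 15. A feature short of a threshold in a contrast can still differ there, so these are not effects shown only at T24 under depletion. None of the 7 features called in the interaction with POLE4 was among the 215, since each was called in another contrast. Tle4, a Groucho corepressor chosen after its values were seen, was one of the 215, at 53, 52.2 and 53.9 CPM against 101, 103 and 100.4 CPM, a log2 difference of -0.93 (SE 0.06, edgeR adjusted p = 1.72e-06). It stood at -0.42 with POLE4, -0.45 at T12 and -0.57 at T60, past the p threshold and short of the fold threshold, and at -0.28 at T0. The difference between the line effects of Tle4 with and without POLE4 was -0.50 (SE 0.08, edgeR adjusted p = 0.013) and was not called. Whether the line effect of such a gene differs between T0 and T24 is a separate question, taken up next. Tle4 was called in that test, with a difference of -0.66 (SE 0.10, edgeR adjusted p = 0.00129). The libraries by which Tle4 was chosen also enter that test, so this call is not independent evidence.

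The response to 24 h of RA was compared between the lines as an interaction of line and time over 12 dTAG-treated libraries, which asks what changed beyond the difference at T0. It was called in 252 of 20086 features (1.25%), 88 with a more positive response in dPOLE4 MCM2-2A (0.438%) and 164 with a more negative one (0.816%). Outside chromosomes 11, 14 and 15 there were 67 (0.414%) and 132 (0.815%). Of the 164, 90 were called higher in dPOLE4 MCM2-2A at T0, 60 were called lower in it at T24, 10 were both and 24 neither. Of the 88, 52 were called lower at T0 and 26 higher at T24.

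Crabp2 crossed over. It was counted at 23.1, 18.5 and 18.8 CPM in dPOLE4 MCM2-2A and at 6.46, 7.15 and 10.2 CPM in dPOLE4 at T0, and at 27.9, 37 and 27.8 CPM and 67.3, 83.9 and 68.2 CPM at T24 on the scale of these 12 libraries. The mutant was thus above dPOLE4 before RA and below it after 24 h, a response differing by -2.58 (SE 0.22, edgeR adjusted p = 2.25e-05). Dhrs3 did the same, with 3.69, 3.95 and 3.51 CPM against 0.717, 1.55 and 1.85 CPM at T0 and 31.9, 37.2 and 35.2 CPM against 61.9, 60.1 and 60.8 CPM at T24, a difference of -2.17 (SE 0.23, edgeR adjusted p = 9.9e-05). Stra6 and Stra8 were higher in the mutant at T0 and near dPOLE4 at T24, with differences of -1.45 and -1.55. Stra6 stood at 4.63, 4.24 and 4.3 CPM against 1.23, 1.34 and 1.04 CPM at T0. The same course was seen in the endoderm regulators Gata6 and Foxa1 and the Nodal inhibitor Lefty1, with differences of -1.83, -1.61 and -1.98. Lefty1 went from 80.7, 80.7 and 77.9 CPM to 179, 204 and 181 CPM in dPOLE4 MCM2-2A and from 22.1, 32.2 and 28.4 CPM to 264, 299 and 208 CPM in dPOLE4.

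Other genes were apart at T24 and either differed little before RA or had T0 levels close to 0 CPM. Fgfr2, not called at T0 (log2 difference 0.30), went from 48.3, 46 and 42.1 CPM to 34.1, 39.2 and 38.6 CPM in dPOLE4 MCM2-2A and from 37.8, 33.6 and 39.1 CPM to 57, 62.8 and 73.6 CPM in dPOLE4, a difference in response of -1.09 (SE 0.14, edgeR adjusted p = 0.000455). The Hoxb genes of chromosome 11 were close to 0 at T0, where Hoxb4 was at 0.820, 1.15 and 0.785 CPM in dPOLE4 MCM2-2A and 0.564, 0.376 and 0.296 CPM in dPOLE4. The response of Hoxb4 differed by -2.25 (SE 0.32, edgeR adjusted p = 0.00111), with line differences of 1.13 at T0 (not called) and -1.13 at T24. This coefficient thus rests in part on T0 values near the floor, and its call held in 12 of 12 fits with a library left out. Hoxb3 and Hoxb1 had the lowest coefficients of all named genes (-4.35 and -3.11), but their T0 levels were means of at most 0.43 CPM, so that the coefficients depend on the prior count, and they kept their calls in 3 and 2 of 12 fits with a library left out, adjusted p in edgeR reaching 0.0751 and 0.0535 without dPOLE4 MCM2-2A replicate 3 of T0. The receptor Fgfr3 had a difference of -1.91, which goes beyond its log2 difference at T24 given above, so that a difference at T0 entered too.

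Several genes that RA turns down in dPOLE4 were low in the mutant from the start. Sp5 fell from 18.8, 13.3 and 13.4 CPM to 3.18, 4.74 and 2.63 CPM in dPOLE4 and was at 0.879, 0.503 and 0.480 CPM and 0.989, 1.12 and 1.04 CPM in dPOLE4 MCM2-2A, a difference of 2.9 (SE 0.40, edgeR adjusted p = 0.000904). Brachyury, the zinc transporter Slc39a8, the guanylate-binding Gbp2b and the growth hormone receptor Ghr (chromosome 15) followed the same course, with differences of 2.68, 2.82, 2.74 and 2.3. Mixl1, a homeobox gene of the primitive streak, and Loxl4, a lysyl oxidase, were below dPOLE4 at T0 and above it at T24. Mixl1 went from 0.879, 1.01 and 0.938 CPM to 2.28, 1.97 and 2.95 CPM in dPOLE4 MCM2-2A and from 1.74, 1.71 and 2.04 CPM to 0.981, 1.09 and 1.21 CPM in dPOLE4, a difference of 2.13 (SE 0.30, edgeR adjusted p = 0.00102). The naive factors Esrrb, Nr5a2 and Tfcp2l1 fell in both lines and by less in the mutant, with differences of 0.78, 0.78 and 0.71.

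**Figure D5:**
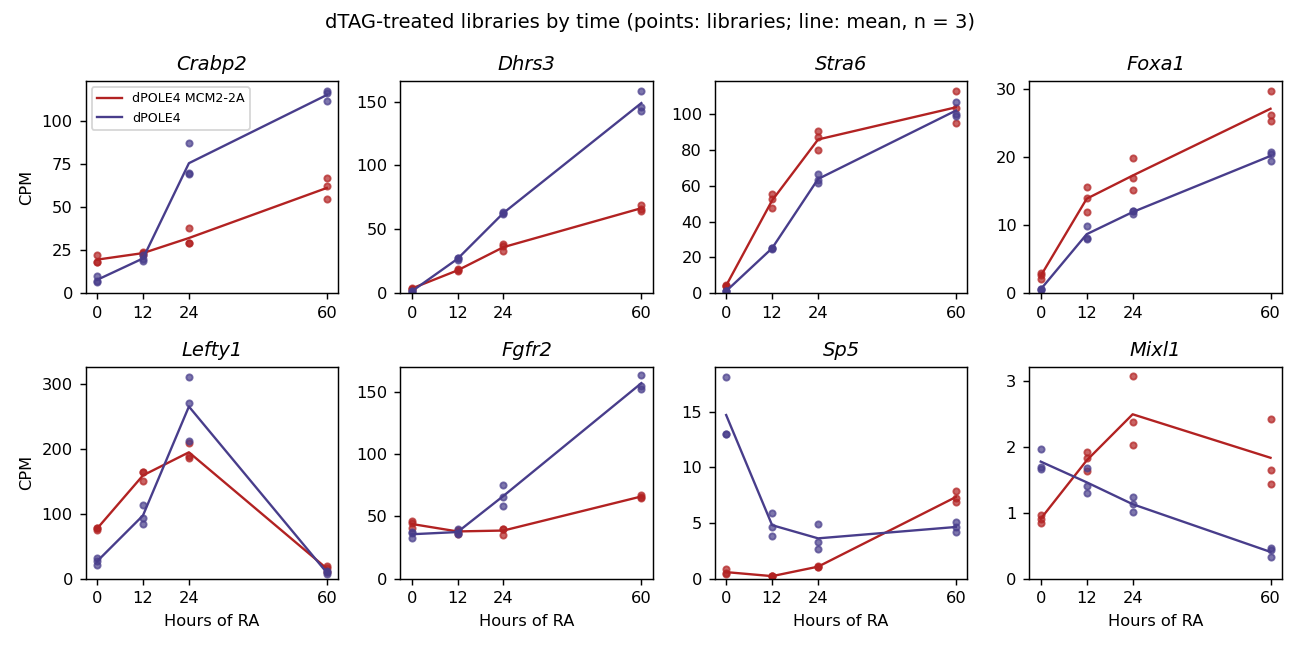
CPM (y axes, linear from 0) of 8 genes over hours of RA (x axes) in the dTAG-treated lines, each time point scaled within its own comparison. Points are libraries and lines join means (n = 3). Crabp2 and Dhrs3 start higher and end lower in dPOLE4 MCM2-2A (red) than in dPOLE4 (blue), and Sp5 is near 0 in dPOLE4 MCM2-2A until T24.

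The wider RA response was followed with lists made from Ctrl cells, none of whose libraries enter the comparisons given with them. Ctrl and dPOLE4 are the same clone, so the lists hold features chosen by the response of that clone. Part of a weaker response in dPOLE4 MCM2-2A, and of a difference at T0, can come from this choice, and its size was not tested. Between T0 and T24, Ctrl cells induced 2486 and repressed 1518 of 18350 features (21.8% called, 13.5% up and 8.27% down). Of the induced features 2475 were tested at T24 under depletion, where 357 were higher and 320 lower in dPOLE4 MCM2-2A (27.4% called, beside 16.1% over all features), with a median of 0.02. At T0, 523 of 2225 were higher and 191 lower, beside 10.3% higher and 8.27% lower over all features, with a median of 0.26 against -0.0028. In the interaction of line and time, 116 of 2477 induced features had a more negative response in dPOLE4 MCM2-2A and 6 a more positive one, beside 0.816% and 0.438% over all features, with a median of -0.22 against -0.02. Their median response was 0.86 in dPOLE4 and 0.73 in dPOLE4 MCM2-2A. Of the repressed features 196 of 1374 were higher at T24 and 152 lower (25.3% called, median 0.03), while at T0 165 were higher and 270 lower (median -0.13) and at T60 367 were higher and 91 lower (median 0.31), beside 11.2% and 9.25% over all features. Their median response to 24 h of RA was -0.87 in dPOLE4 and -0.77 in dPOLE4 MCM2-2A, with 48 of 1507 features responding more positively in the mutant and 11 more negatively.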

How the data were processed

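The authors trimmed stranded, rRNA-depleted libraries with cutadapt 4.2, aligned them with STAR to mm10 (GRCm38) keeping reads with several alignments, and deposited unnormalized counts per gene (GENCODE) and repeat subfamily from TEcount. The 48 libraries of 1 table were used. Gene names and positions came from GENCODE M21 (55141 of 55487 genes matched by ID, 346 did not), promoters from RefSeq.

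In R 4.3.3, features of each comparison that passed filterByExpr at a count of 10 and a total of 15 were scaled with TMM and tested with the quasi-likelihood test of edgeR 4.0.16, with Benjamini-Hochberg adjustment over all tested features. Interactions were tested over 4 groups. Each comparison has its own scaling, so the CPM of a library differs slightly between comparisons. The procedure was tested on simulated data. Outside chromosomes 11, 14 and 15 the genes named are the 12 highest and 12 lowest called protein-coding genes, on each of these chromosomes the 3 largest, of the repeats 3 in each direction and for each interaction 6 in each direction, with groups that do not overlap and a mean of at least 5 CPM where this applies, plus any member of the gene lists, Mcm2 and Pole4. Some genes that meet these rules are not reported here. Members and lists were chosen with earlier results of these data known, and the naive, formative and early RA lists (the last with 5 genes here) follow the study.

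Replicate numbers were checked for pairing. At T24 the deviations from the group mean correlated between the 3 pairs of libraries with the same number (r = 0.131 to 0.448) and between -0.457 and 0.254 for other pairs, so the block on replicate number is given where it changes a call. Alternatives were DESeq2 1.42.0, other scalings, filters and thresholds, robust estimation, all 4 groups of T24 in 1 fit, and each library left out.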

Additional observations from a re-analysis of the deposited data

Results flagged for a closer look

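The results below are those in which the effect of the MCM2-2A line differed between groups by a test of the difference itself. Values are differences of log2 fold changes, and their causes were not tested.

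The effect of MCM2-2A at T24 differed between dPOLE4 and Ctrl in 7 features. Cxcl12 stood at -1.44, Zic2 at -1.06, H1f0 at -1.0, H1fx at -0.96, MMERGLN-int at -0.72, Meis2 at -0.67 and Car2 at -0.62. Each was called in at most 5 of 12 fits with a library left out.

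The response to 24 h of RA differed between dPOLE4 MCM2-2A and dPOLE4 in 252 features. Among listed and named genes of RA metabolism and its targets, Crabp2 stood at -2.58, Dhrs3 at -2.17, Stra8 at -1.55 and Stra6 at -1.45, and the Hox genes Hoxb3 at -4.35, Hoxb1 at -3.11 and Hoxb4 at -2.25. Genes of FGF signalling stood at -1.91 (Fgfr3), -1.40 (Fgf15), -1.09 (Fgfr2), -0.75 (Spry4) and -0.65 (Dusp6), and the Nodal inhibitors Lefty1 and Lefty2 at -1.98 and -1.16. Endoderm regulators stood at -1.83 (Gata6) and -1.61 (Foxa1). Among pluripotency genes Pou3f1 stood at -1.37, Tcf15 at -1.09, Zic2 at -0.86, Tfap2c at -0.67, Pecam1 at -0.65, Tfcp2l1 at 0.71, Esrrb at 0.78 and Nr5a2 at 0.78. The imprinted genes Cdkn1c, Mest and H19 stood at -1.39, -1.04 and -0.99, and Myc and Slc2a1 at -1.17 and -0.79. More positive in dPOLE4 MCM2-2A were the keratins Krt8 (0.91) and Krt18 (0.97), the Wnt genes Fzd10 (1.0) and Sp5 (2.90), the streak genes Mixl1 (2.13) and brachyury (2.68), and Ghr (2.30), Gbp2b (2.74), Loxl4 (2.82) and Slc39a8 (2.82). Fgf15 lost its call in all 12 fits with a library left out, and Hoxb3, Hoxb1, H19, Tcf15, Lefty2, Slc2a1, Tfap2c and Krt18 lost theirs in at least 8.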

How the results depend on the processing

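For the T24 comparison the fold threshold moved the count of calls most. Testing against a 1.5-fold change (glmTreat) left 1027 of 3064 features at T24, 674 of them outside chromosomes 11, 14 and 15, and no fold threshold gave 4717 and 3176. The difference between dPOLE4 and Ctrl was called in 7 features, and in 29 with DESeq2, 55 without a filter, 28 with the replicate block and 0 with glmTreat. The difference in RA response was called in 252 features, and in 429 with DESeq2, 577 without a filter and 33 with glmTreat. The causes were not tested.

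With each library left out, the T24 comparison called 2464 to 2880 features and 1519 to 1864 outside chromosomes 11, 14 and 15, and the difference between dPOLE4 and Ctrl 0 to 7. The difference in RA response was called in 146 to 221, with 160 without dPOLE4 T0 replicate 2, 159 without dPOLE4 MCM2-2A T0 replicate 2, and 148 and 146 without dPOLE4 MCM2-2A T24 replicates 1 and 3. The contrast in Ctrl gave 2880 to 3107, at T0 2764 to 3393, at T12 3027 to 3281 and at T60 3149 to 4036, and the RA lists of Ctrl 3633 to 3959. Of 182 listed or named features called at T24, 148 kept their call in all 6 fits.

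The replicate block called 3482 features at T24, 3052 of them shared with the 3064, and changed no other T24 call of a named gene than those given above, with Tdpoz4 gained (edgeR adjusted p = 0.0062). For the difference in RA response it called 293 and ended the calls of Hoxb3 and Fgf15 (edgeR adjusted p = 0.0104 and 0.0139). Same-numbered libraries correlated above 0.1 in 7 of 18 pairs there, all 3 pairs of T24 among them, and in 15 of 18 for the difference between dPOLE4 and Ctrl. DESeq2 called 2919 features at T24, 2853 of them shared. Across the settings 50.9% to 57.2% of calls were higher in dPOLE4 MCM2-2A, and no result changed direction. List medians moved by more than their spread in 11 of 80 cases without a filter, in 16 with at least 10 counts in every library, in 12 to 27 with a library left out, and in none under the other scalings or the block.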
